A study of Mus musculus with 23 samples.

Results

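The p53 double mutant called QM was compared with the p53-null state in mouse embryonic fibroblasts, primary connective-tissue cells cultured from embryos. Arrays were taken by their titles: the 3 arrays titled LSL-QM+Cre formed the QM group, and the 3 titled LSL-WT+Emp and the 3 titled Null+Cre together formed the Null group, 9 of 23 arrays in all. QM carries 4 substitutions in p53, L25Q and W26S in the first activation domain and W53Q and F54S in the second. Its cells had the p53_LSL-QM knock-in allele and received Adeno-Cre, an adenovirus that delivers Cre recombinase, and 2 of the 3 arrays came from 129/Sv cells and 1 from cells of a mixed 129/Sv/C57BL6 background. In the Null group, the LSL-WT+Emp cells had the p53_LSL-WT knock-in and Adeno-Empty, a virus without Cre (1 array 129/Sv, 2 mixed). The Null+Cre cells were p53_null with Adeno-Cre (all 3 arrays 129/Sv), and the label of 1 of them added the word knock-in. LSL denotes a transcriptional stop cassette that Cre excises. All cells of both groups, and of the 3 further groups used here for scale, carried retroviral H-Ras V12, an activated form of the Ras GTPase. Those groups were 25,26 with the first pair of substitutions (n = 5), 53,54 with the second pair (n = 3) and WT with wild-type p53 (n = 6). The study design calls the arrays biological samples, but the labels do not tie them to separate embryos or cultures, so the p-values measure the spread between these samples, which may in part be technical. Age of the embryos is not given in the labels.

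p53 is a transcription factor that binds paired copies of a short DNA motif and recruits coactivators through its amino-terminal activation domains. Stress and oncogene signals stabilise it, and its targets act in cell-cycle arrest, apoptosis, DNA repair and the feedback that limits p53. In fibroblasts, activated Ras drives a p53-dependent senescence arrest. The question was whether any expression change remained when both activation domains were disrupted.

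The array medians lay between 59.9 and 64.22 on the intensity scale, and the number of arrays, not a read depth, limited the precision. All 11 fibroblast markers lay above the low-signal limit (log2 4.79), with the highest mean for Vim, and their summed intensity ranged from 103100 to 121051 in QM and from 105175 to 151654 in Null. Of 12 epithelial markers 11 lay above that limit, with sums of 3734 to 5059 in QM and 2121 to 4588 in Null. Of 12 macrophage markers 8 did, with sums of 604.2 to 744.3 in QM and 601.1 to 744.3 in Null. The largest sums outside the fibroblast list were those of neural and glial markers, of which 9 of 10 lay above the limit. They were 9056 to 18696 in QM and 6323 to 16426 in Null, with the highest mean for Nefl. Of 12 skeletal muscle markers 8 lay above the limit, with sums of 2742 to 4820 in QM and 1905 to 3880 in Null. Xist, the RNA that coats an inactive X chromosome, was above a log2 level of 8 on 2 of 3 QM arrays, against 1 of 3 LSL-WT+Emp and 0 of 3 Null+Cre arrays, and the Y-linked gene Eif2s3y was low on those arrays alone. The groups were therefore not matched for the sex of the embryos. Transcripts of the targeted gene itself are not analysed here, so the labels could not be checked against it, and the level of the mutant protein was not measured. A difference between arrays of whole cultures can come from fewer cells of a type or from less RNA per cell, which cannot be told apart.

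Of 15266 genes tested, 2 were higher in QM than in Null and 0 were lower (0.0131% called by limma at a Benjamini-Hochberg adjusted p of 0.05, title numbers as a block). The fit without that block gave the same numbers, 2 higher and 0 lower. At an unadjusted p under 0.05 the fit with the block counted 491 genes higher (3.22%) and 245 lower (1.6%), 4.82% of those tested. For scale, WT differed from Null in 5160 genes (33.8%, 16.2% higher and 17.6% lower), 53,54 in 4847 (31.8%) and 25,26 in 2167 (14.2%). QM differed from WT in 4025 genes (26.4%), from 53,54 in 3580 (23.5%) and from 25,26 in 603 (3.95%). These comparisons share arrays and group sizes differ, so the counts stand side by side only. The QM and Null arrays did not overlap for 145 genes higher in QM (0.95%) and 74 lower (0.485%). The median standard error of a QM minus Null log2 difference was 0.11. The same fit, run on simulated arrays as variable as these, recovered 56.7%, 85.1% and 97% of log2 changes of 0.5, 1 and 1.5. That simulation drew independent noise and changed 67, 67 and 66 genes by these sizes, which gave 166 calls. The adjustment is less strict with that many calls than with the 2 here, so these rates overstate the power of this comparison.

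**Figure D1:**
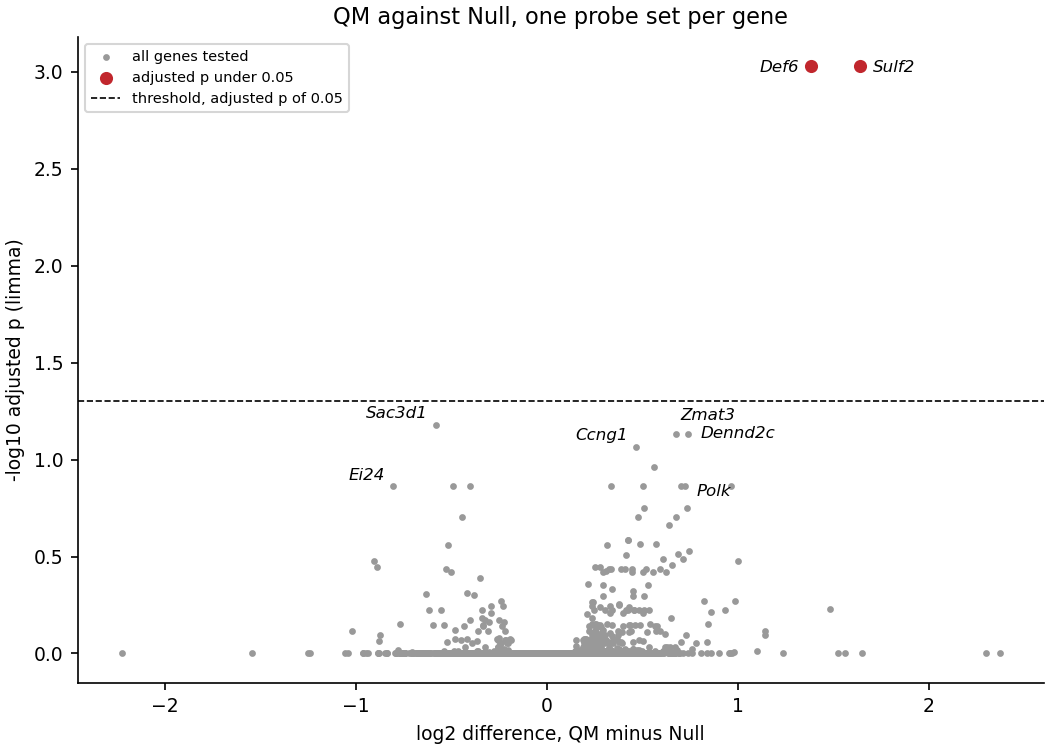
Each point is 1 of 15266 genes, with the log2 difference QM minus Null on the x axis and -log10 of the adjusted p on the y axis. Sulf2 and Def6 lie above the dashed threshold of 0.05 and no other gene does; the outermost unlabelled points include Xist at 2.37 and Eif2s3y at -2.23, whose levels varied among the arrays of QM and among those of Null.

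Both genes that passed were higher in QM. Sulf2, on chromosome 2, encodes an extracellular sulfatase that removes 6-O-sulfate groups from heparan sulfate and so changes growth-factor binding at the cell surface. Its log2 levels were 9.54, 9.05 and 10.02 on the QM arrays, against 8.25, 7.83 and 8.45 on the LSL-WT+Emp arrays and 7.07, 7.68 and 8.08 on the Null+Cre arrays. Every QM array lay above every Null array. The log2 difference QM minus Null was 1.64 ± 0.18 (SE, n = 3 and 6, 95% interval 1.25 to 2.03), a 3.12-fold difference, with an adjusted p of 9.34e-04 in limma and 0.00914 without the block. In WT, Sulf2 averaged 12.92 ± 0.21 (SD, n = 6), so QM differed from WT by -3.38 (adjusted p = 1.12e-09 in limma). The 25,26 mean was 12.52, and QM differed from it by -2.96 (adjusted p = 3.15e-07 in limma).

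Sulf2 had 3 probe sets. The one with the next largest change had log2 levels of 8.11, 7.86 and 8.0 in QM, 6.59, 6.55 and 6.68 in LSL-WT+Emp and 5.73, 6.07 and 6.31 in Null+Cre. Its QM minus Null difference was 1.59 ± 0.21 (adjusted p = 0.00855 over all probe sets in limma), and its WT minus Null difference was 5.29. The other one differed by 0.09 ± 0.10 in QM and by -0.07 in WT, each against Null. So 2 of the 3 probe sets showed the change, and the one that did not in QM also did not in WT.

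Def6, on chromosome 17, encodes a guanine nucleotide exchange factor best known from lymphocytes. It was represented by 1 probe set, with log2 levels of 8.03, 7.95 and 7.75 in QM, against 6.09, 6.94 and 6.67 in LSL-WT+Emp and 6.90, 6.06 and 6.17 in Null+Cre. The lowest QM array stood clear of the highest Null array. The log2 difference was 1.39 ± 0.16 (SE, n = 3 and 6, 95% interval 1.05 to 1.72), a 2.61-fold difference (adjusted p = 9.34e-04 in limma and 0.00914 without the block). WT averaged 9.26 ± 0.34 (SD, n = 6) and 25,26 averaged 9.12, and QM differed from them by -1.35 (adjusted p = 9.74e-06 in limma) and -1.35 (adjusted p = 2.57e-04 in limma).

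Each of the 2 calls held on dropping any 1 of the 9 arrays, with adjusted p of at most 0.026 in limma, but both ended when the fit used the 9 QM and Null arrays alone. There Sulf2 kept a difference of 1.64 with an adjusted p of 0.449, and Def6 kept 1.41 with 0.382 (limma with the block). With those arrays alone and no block, the adjusted p was 0.618 for Sulf2 and 0.5 for Def6 (limma). The estimates stayed, and the spread then rested on the QM and Null arrays only. Sulf2 ranged from 9.05 to 10.02 in QM and from 7.07 to 8.45 in Null, but only from 12.53 to 13.15 in WT. For Def6 the WT range was not the narrower one, at 8.87 to 9.82, against 7.75 to 8.03 in QM and 6.06 to 6.94 in Null. The main fit took its spread from the arrays of all groups, including those outside the comparison. Why the calls ended was not tested.

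**Figure D2:**
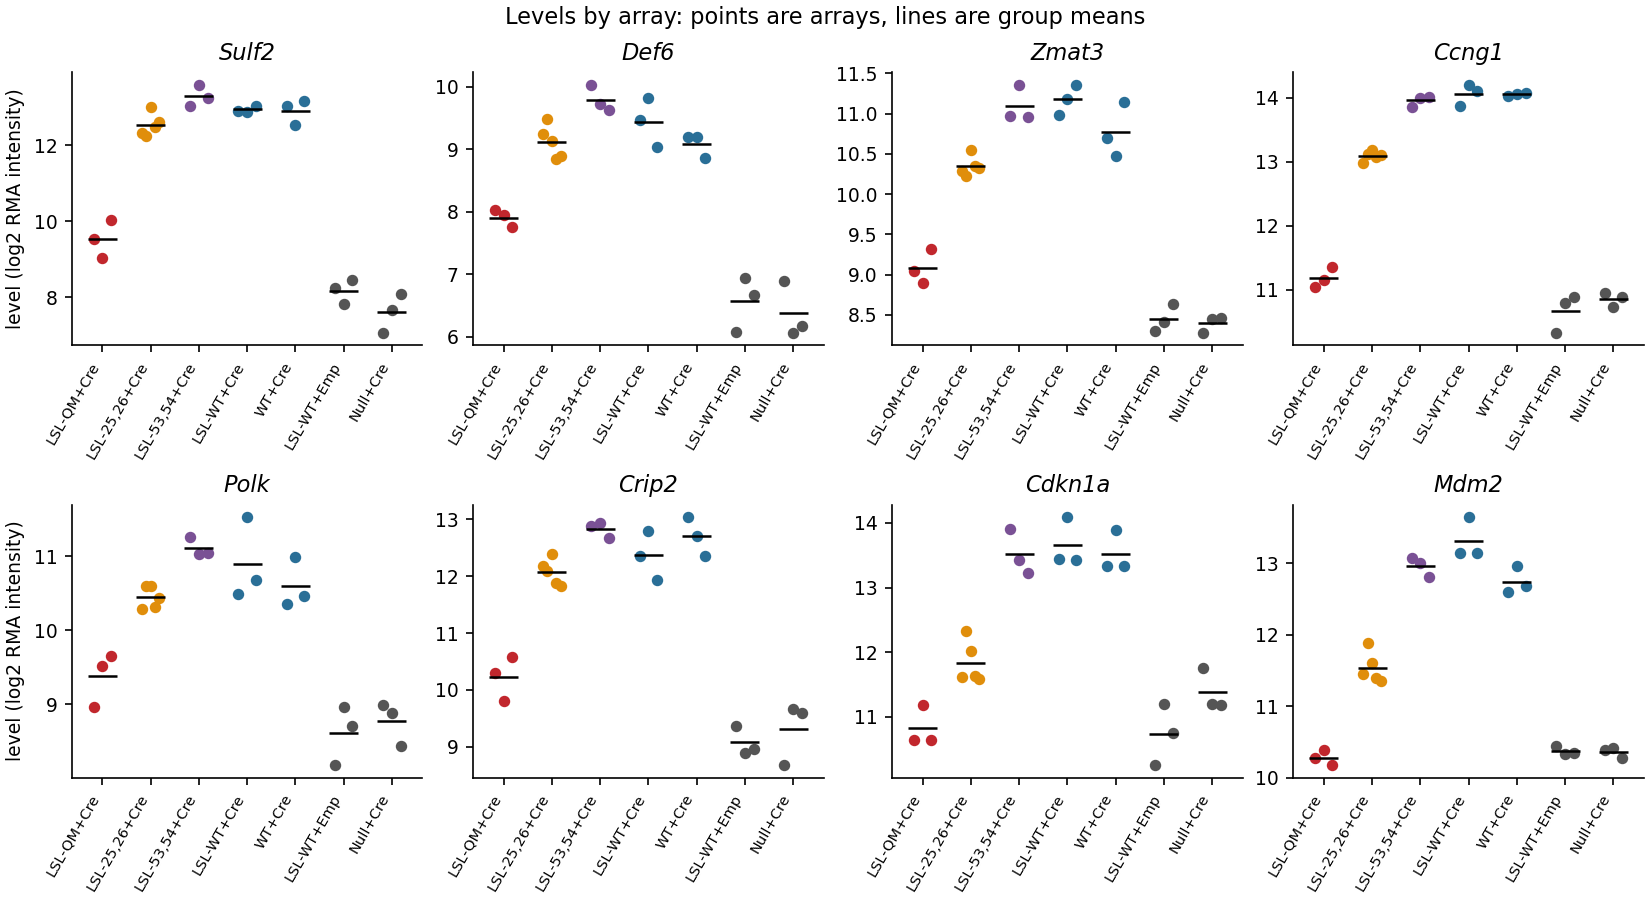
Log2 level of 8 genes on every array, from QM at the left through 25,26, 53,54 and the WT subgroups to the Null subgroups at the right; points are arrays, lines are group means, and each panel has its own y axis. The QM points of Sulf2 and Def6 lie between those of Null and those of the other groups, while those of Cdkn1a and Mdm2 lie within or beside the Null range.

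The promoters of these 2 genes are shown beside those of Cdkn1a and Mdm2, which p53 activates and which did not pass in QM against Null, so that the sequence around the starts can be read with the values. Each is the RefSeq window of 250 bases before to 50 after a transcript start, on GRCm38.p6, written 5′ to 3′ on the strand of the gene. The windows are chr17:28207528-28207827 (+) for Def6, chr2:166155634-166155933 (-) for Sulf2, chr17:29090729-29091028 (+) for Cdkn1a and chr10:117710709-117711008 (-) for Mdm2, the first window listed for each gene. Capitals mark matches to the p53 decamer motif, searched on both strands, with no other motif searched:
Def6: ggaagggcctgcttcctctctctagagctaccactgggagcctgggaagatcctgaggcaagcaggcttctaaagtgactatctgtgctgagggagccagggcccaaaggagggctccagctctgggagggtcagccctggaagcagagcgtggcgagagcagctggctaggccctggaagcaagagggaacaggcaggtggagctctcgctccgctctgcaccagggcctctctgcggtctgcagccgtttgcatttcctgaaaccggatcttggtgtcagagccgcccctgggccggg
Sulf2: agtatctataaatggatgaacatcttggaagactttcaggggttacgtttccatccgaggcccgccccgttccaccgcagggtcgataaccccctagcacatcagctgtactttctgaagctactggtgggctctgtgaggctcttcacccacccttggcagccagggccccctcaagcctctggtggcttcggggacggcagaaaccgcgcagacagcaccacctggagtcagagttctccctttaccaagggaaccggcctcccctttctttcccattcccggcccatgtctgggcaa
Cdkn1a: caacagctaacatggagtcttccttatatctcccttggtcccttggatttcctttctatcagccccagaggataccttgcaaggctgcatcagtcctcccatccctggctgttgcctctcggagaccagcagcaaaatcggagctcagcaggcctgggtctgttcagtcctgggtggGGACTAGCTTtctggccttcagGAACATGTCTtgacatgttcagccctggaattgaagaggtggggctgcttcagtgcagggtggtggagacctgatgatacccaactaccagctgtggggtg
Mdm2: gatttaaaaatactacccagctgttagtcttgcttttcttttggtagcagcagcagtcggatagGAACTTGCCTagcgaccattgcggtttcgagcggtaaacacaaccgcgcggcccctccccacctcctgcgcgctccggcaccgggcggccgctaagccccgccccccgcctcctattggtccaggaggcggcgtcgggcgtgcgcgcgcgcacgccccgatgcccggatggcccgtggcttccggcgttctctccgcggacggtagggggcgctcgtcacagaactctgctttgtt
The Cdkn1a window shown held 2 matches, the second listed Cdkn1a window 0 and the Mdm2 window 1. The Def6 window and both listed Sulf2 windows held 0, which says only that these letters were not found there. Over all 32817 promoter windows 8.36% held a match, so a match is a description of the window and not a bound site.

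The lists of p53 targets had 65 genes, of which 61 were tested, and 0 of them passed in QM against Null, beside 0.0131% of all genes. At an unadjusted p under 0.05, 9 were higher and 3 lower, beside 3.22% and 1.6% of all genes. Their median QM minus Null log2 difference was 0.06, with a range of -0.80 to 1.14, beside a median of 0.01 over all genes tested. In WT, 42 of the 61 rose against Null, beside 16.2% of all genes, with a median of 1.59, and those 42 had a median of 0.11 in QM. Of the 42, 35 were lower in QM than in WT (11.1% of all genes were), and for 32 the whole 95% interval of QM minus Null lay below that of WT minus Null. The interval of QM minus Null held 0 for 30 of the 42, lay above 0 for 9 and below 0 for 3. The 2 comparisons share the Null arrays. The 42 were also chosen by high levels on the WT arrays that QM is then set against. That choice favours lower values in QM than in WT, so the share of all genes is no fitting background for the 35. A choice by WT minus Null also favours low levels on the Null arrays, and so positive values of QM minus Null.

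**Figure D3:**
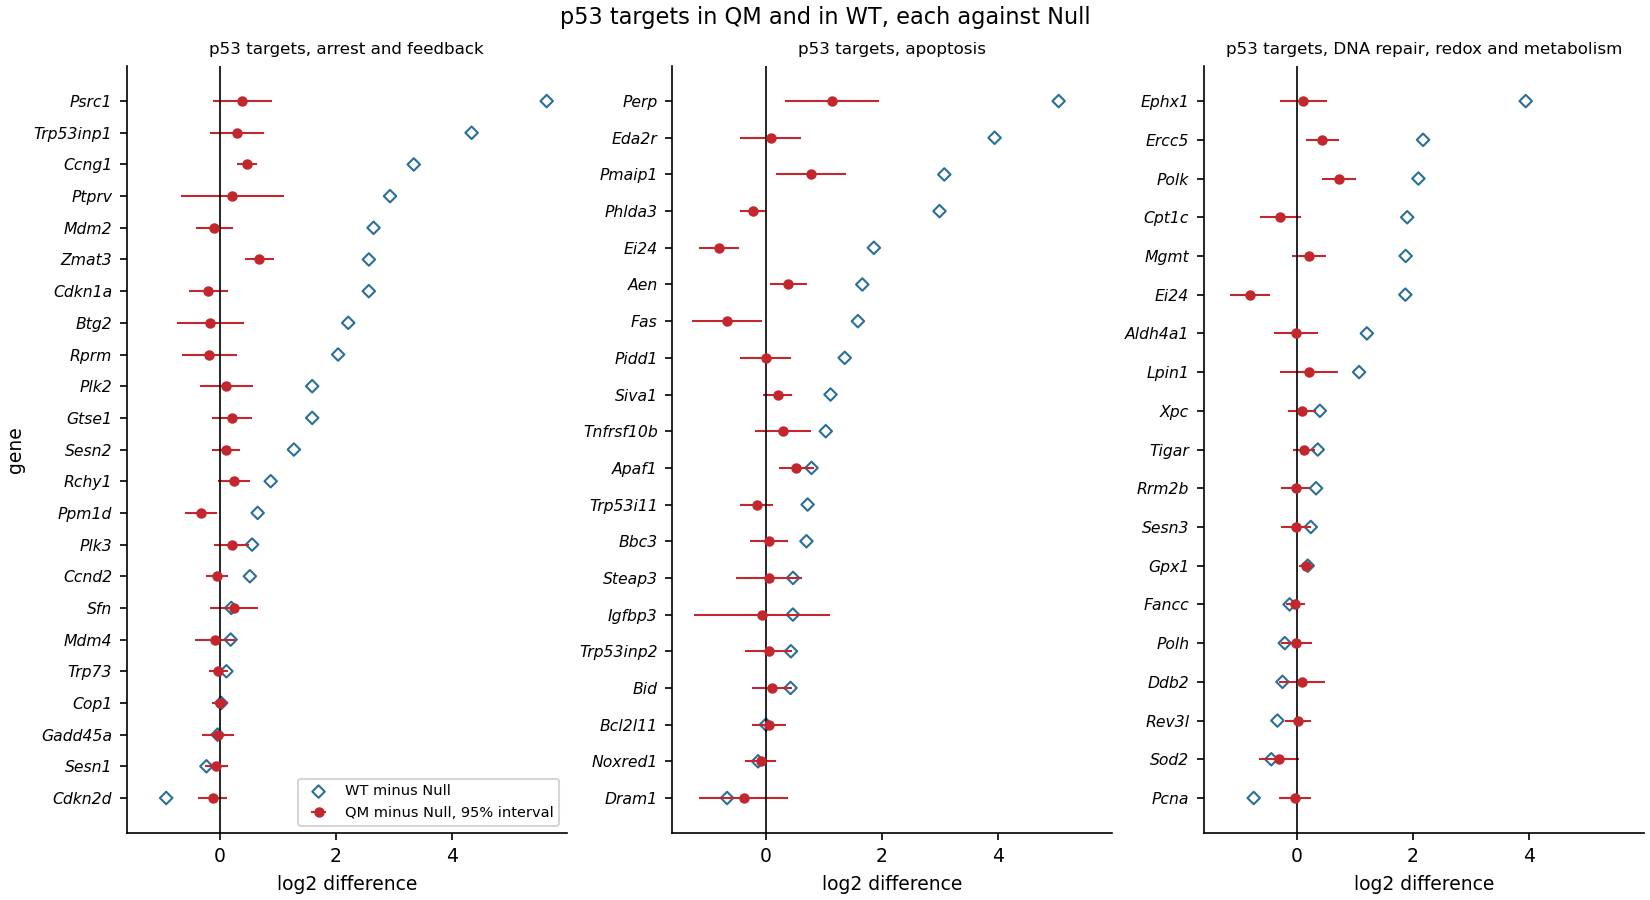
Log2 differences of the tested p53 targets in 3 lists: filled points are QM minus Null with 95% intervals from the fit, and open diamonds are WT minus Null, with genes ordered by the WT value. Most filled points lie near 0 across the range of WT values, up to 5.63 for Psrc1; Ei24 is drawn in 2 lists.

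Among targets of arrest and feedback, 0 of 23 passed in QM, with a median of 0.00, while 16 rose and 2 fell in WT and 15 were lower in QM than in WT. Cdkn1a encodes p21, which blocks cyclin-dependent kinases when p53 is active. Its log2 levels were 10.64, 11.18 and 10.64 in QM, 10.25, 11.20 and 10.75 in LSL-WT+Emp, and 11.75, 11.20 and 11.19 in Null+Cre. The QM arrays lay among those of LSL-WT+Emp and below those of Null+Cre. QM minus Null was -0.20 ± 0.16 (95% interval -0.53 to 0.13), against 2.57 for WT minus Null. Against Null+Cre alone Cdkn1a passed as lower in QM, at -0.56 (adjusted p = 0.0331 in limma), whereas the value against LSL-WT+Emp was 0.09.

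Mdm2, the ubiquitin ligase that degrades p53, had log2 levels of 10.28, 10.38 and 10.17 in QM, 10.44, 10.33 and 10.34 in LSL-WT+Emp and 10.38, 10.42 and 10.27 in Null+Cre. These arrays overlapped throughout. The difference was -0.10 ± 0.15 (95% interval -0.42 to 0.22), against 2.65 in WT. Psrc1, which encodes a microtubule-associated protein, stood 5.63 higher in WT than in Null and differed by 0.38 ± 0.24 in QM. Trp53inp1, a p53-induced nuclear and autophagy protein gene, was 4.34 higher in WT and differed by 0.29 ± 0.22 in QM. Ppm1d, the phosphatase that dampens p53 signalling, differed by -0.33 ± 0.13 (adjusted p = 0.9997 in limma), against 0.65 in WT.

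Zmat3 and Ccng1 came nearest to the threshold in this group. Zmat3 encodes an RNA-binding zinc-finger protein, with log2 levels of 9.05, 8.89 and 9.32 in QM, against 8.29, 8.41 and 8.63 in LSL-WT+Emp and 8.27, 8.45 and 8.46 in Null+Cre. All QM arrays were above all Null arrays. Its difference was 0.68 ± 0.12 (95% interval 0.43 to 0.93), with an adjusted p of 0.0741 in limma, and it was 2.57 higher in WT than in Null. Ccng1, which encodes cyclin G1, had log2 levels of 11.05, 11.15 and 11.36 in QM, against 10.33, 10.79 and 10.89 in LSL-WT+Emp and 10.95, 10.73 and 10.89 in Null+Cre. These groups did not overlap either on the probe set used. The difference was 0.47 ± 0.08 (adjusted p = 0.0857 in limma), with values of 0.47, 0.40 and 0.42 for its 3 probe sets, against 3.34 in WT. On the probe set with 0.40 the groups did overlap, with the lowest QM array at 10.03 and Null+Cre replicate 2 at 10.11. Zmat3 passed in 4 of 27 alternatives, which were median-centred arrays, a random block, array weights and the mean of the 2 Null subgroups. Ccng1 passed in 5 of 27, which were the mean of its probe sets, a random block, trended variances, array weights and the fit without Null+Cre replicate 2 (0.51).

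Among apoptosis targets, 0 of 20 passed in QM, with a median of 0.06, while 15 rose in WT and 12 were lower in QM than in WT. Perp, a desmosome-associated death gene, had log2 levels of 8.25, 6.68 and 6.37 in QM, 6.65, 6.08 and 6.42 in LSL-WT+Emp and 4.84, 5.32 and 5.27 in Null+Cre. The first QM array stood apart and the other QM arrays met the LSL-WT+Emp range. Its difference was 1.14 ± 0.39 (adjusted p = 0.807 in limma), against 5.05 in WT. Pmaip1, which encodes the BH3-only protein Noxa, had 9.44, 8.96 and 8.64 in QM, 8.47, 8.75 and 8.63 in LSL-WT+Emp and 7.63, 7.48 and 6.85 in Null+Cre. The QM values overlapped those of LSL-WT+Emp and lay above those of Null+Cre, and the difference of 0.78 did not pass (adjusted p = 0.888 in limma). Apaf1, the scaffold of the apoptosome, had 9.82, 9.6 and 10.07 in QM, 9.02, 9.22 and 9.62 in LSL-WT+Emp and 9.33, 9.52 and 9.35 in Null+Cre. The lowest QM array met the highest Null array, and the difference was 0.53 ± 0.14 (adjusted p = 0.442 in limma), against 0.79 in WT. Apaf1 passed against Null+Cre, at 0.51 (adjusted p = 0.0407 in limma), and in 1 of 27 alternatives, the mean of the 2 Null subgroups. Aen, an apoptosis-enhancing nuclease gene, differed by 0.39 ± 0.15, against 1.67 in WT. Eda2r, a receptor gene of the tumour necrosis factor receptor family, differed by 0.09 ± 0.25, against 3.95 in WT. Phlda3, an inhibitor of Akt, differed by -0.21 ± 0.10, against 3.00 in WT.

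Ei24, an endoplasmic reticulum protein gene induced by p53, went the other way. Its log2 levels were 8.91, 8.62 and 8.81 in QM, against 9.76, 9.55 and 9.99 in LSL-WT+Emp and 9.18, 9.43 and 9.70 in Null+Cre. Every QM array lay below every Null array. The difference was -0.80 ± 0.16 (95% interval -1.15 to -0.46, adjusted p = 0.137 in limma), against 1.87 in WT. Ei24 passed as lower against each Null subgroup, and in 3 of 27 alternatives, a random block, array weights and the mean of the 2 Null subgroups. Fas, the death receptor, had 5.24, 5.15 and 4.93 in QM, 5.48, 5.39 and 5.45 in LSL-WT+Emp and 6.16, 6.16 and 6.17 in Null+Cre, a difference of -0.66 ± 0.28 (adjusted p = 0.9997 in limma). Its arrays did not overlap, and the QM minus LSL-WT+Emp value was smaller, at -0.33.

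Among targets of DNA repair, redox control and metabolism, 0 of 19 passed in QM, with a median of 0.02, while 12 rose and 3 fell in WT and 9 were lower in QM than in WT. Polk, a translesion DNA polymerase gene, had log2 levels of 8.96, 9.51 and 9.65 in QM, against 8.18, 8.96 and 8.70 in LSL-WT+Emp and 8.99, 8.88 and 8.44 in Null+Cre. The first QM array met the top of the Null range and the others lay above it. The difference was 0.72 ± 0.14 (adjusted p = 0.137 in limma), against 2.09 in WT, and its second probe set gave 0.51. Ercc5, an endonuclease gene of nucleotide excision repair, differed by 0.44 ± 0.14 (adjusted p = 0.712 in limma), against 2.17 in WT. Ephx1, an epoxide hydrolase gene, differed by 0.11 ± 0.20, against 3.94 in WT.

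A further list held 13 genes that published work on the 25,26 mutant names as kept targets. That work used these samples in part, so the list is no independent evidence of its direction. Of the 13, 2 passed in QM against Null (0.0131% of all genes did), which are Sulf2 and Def6, and 12 had a positive difference, beside 54.9% of all genes. The median was 0.19, beside 0.01 over all genes. In WT 12 of the 13 rose against Null, with a median of 1.87, and all 12 were lower in QM than in WT. Taking the 12 by their high WT levels favours that last count. Crip2, a LIM-domain protein gene, had log2 levels of 10.29, 9.80 and 10.57 in QM, against 9.37, 8.89 and 8.96 in LSL-WT+Emp and 8.67, 9.67 and 9.60 in Null+Cre. The groups did not overlap, but the margin was narrow beside the spread in Null+Cre. Its difference was 1.0 ± 0.24 (adjusted p = 0.334 in limma), against 3.31 in WT and 2.93 in 25,26. The other members had differences of 0.13 for Abhd4, 0.19 for Arhgef3, 0.16 for Kank3, 0.20 for Mgmt, 0.05 for Ndrg4, 0.11 for Rgs12 and 0.11 for Sidt2, none past the threshold.

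Genes outside the p53 lists that came close to the threshold ran in both directions. Sac3d1, a gene of a centrosome-associated protein, had log2 levels of 8.65, 8.60 and 8.40 in QM, against 9.40, 9.20 and 8.94 in LSL-WT+Emp and 8.93, 9.0 and 9.02 in Null+Cre. All QM arrays were below all Null arrays. The difference was -0.58 ± 0.10 (adjusted p = 0.0661 in limma), and Sac3d1 was 0.98 higher in WT than in Null. With the mean of its probe sets the QM minus Null difference was smaller, at -0.29 (adjusted p = 0.573 in limma). Sac3d1 passed as lower in 7 of 27 alternatives. These were a random block, array weights, trended variances, the mean of the 2 Null subgroups, LSL-WT+Emp alone, and the fits without title number 2 or Null+Cre replicate 2. Dennd2c, a Rab exchange factor gene, had 7.83, 7.48 and 7.72 in QM, against 6.84, 6.95 and 7.26 in LSL-WT+Emp and 6.5, 7.14 and 6.72 in Null+Cre. Its QM arrays were the higher ones without overlap, and the difference was 0.74 ± 0.13 (adjusted p = 0.0741 in limma). Dennd2c passed in 3 of 27 alternatives, a random block, array weights and the mean of the 2 Null subgroups. Sac3d1 and Dennd2c were named after their values were seen.

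Proliferation genes that were lower in WT than in Null did not pass the test in QM. Of 31 genes of mitosis and G2/M 0 passed, with a median QM minus Null difference of 0.01 and a range of -0.28 to 0.19, whereas all 31 fell in WT, with a median of -1.67. The largest statistic belonged to Cdc20, an activator of the anaphase-promoting complex, at 0.17 (95% interval -0.12 to 0.47). Of the replication and G1/S list, 32 genes tested, 0 passed, with a median of 0.06, whereas 31 fell in WT, with a median of -1.21. Rfc3, a clamp-loader subunit gene, had the largest statistic, at -0.17 (95% interval -0.38 to 0.05). The sign of both list medians turned with the Null subgroup. The mitosis median was -0.07 against LSL-WT+Emp and 0.10 against Null+Cre, and the replication median was -0.004 and 0.14. All 31 mitosis genes and 31 of the replication genes were higher in QM than in WT (QM minus WT higher in 15.2% of all genes), with medians of 1.72 and 1.34.

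The other lists held 0 genes past the threshold each. Extracellular matrix genes had a median of -0.24 in QM, with 5 of 30 lower and 0 higher at an unadjusted p under 0.05 (1.6% and 3.22% of all genes), and Sparc, a matricellular protein gene, at -0.44 (95% interval -0.73 to -0.14). The matrix median was -0.06 against LSL-WT+Emp and -0.45 against Null+Cre. Contractile genes had a median of -0.16, with Cald1, the actin-binding caldesmon gene, at -0.19. Among TGF-beta targets, Inhba, an activin subunit gene, was at -0.38 (95% interval -0.60 to -0.16). Senescence-associated secreted factors had a median of -0.10, with Igfbp6, an IGF-binding protein gene, at 0.58 (95% interval 0.19 to 0.97). The sign of that median turned with the Null subgroup, at 0.17 against LSL-WT+Emp and -0.37 against Null+Cre. Lysosome and autophagy genes had a median of 0.06, with 5 of 19 higher at an unadjusted p under 0.05 (3.22% of all genes), and Atp6v0d1, a proton-pump subunit gene, at 0.24. Ras-MAPK feedback genes had a median of 0.04, with the phosphatase gene Dusp1 at -0.45 (95% interval -0.79 to -0.12), and that median was -0.01 against LSL-WT+Emp and 0.10 against Null+Cre.

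**Figure D4:**
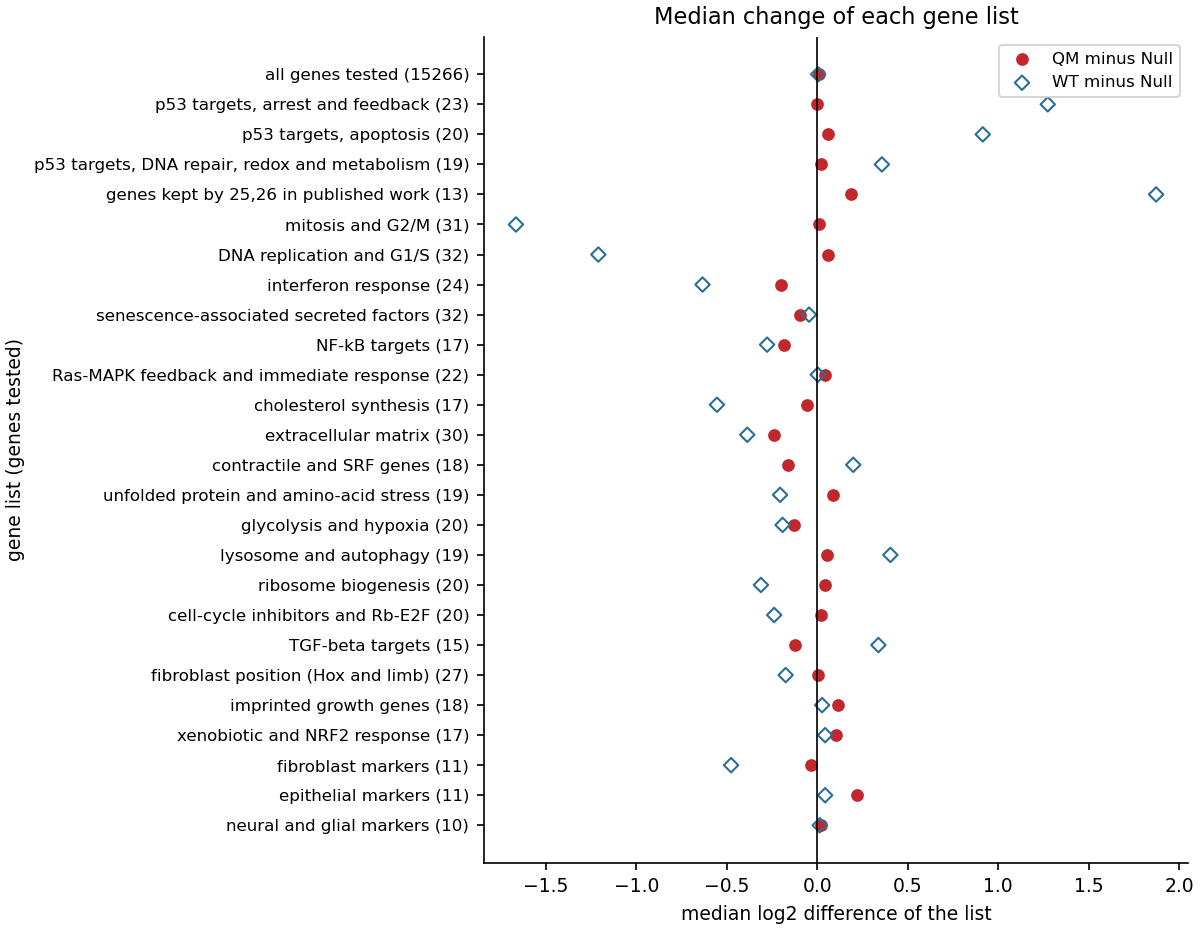
Median log2 difference of each gene list with at least 10 tested genes: filled points are QM minus Null, open diamonds are WT minus Null, and the number of genes tested is in brackets. The QM medians lie between -0.24 and 0.22, while the WT medians reach 1.87 for the genes kept by 25,26 and -1.67 for mitosis genes.

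The 2 subgroups of Null differ in virus, allele, strain and the mix of sexes, so QM was set against each. LSL-WT+Emp matches QM in title numbers and in having an LSL knock-in, but received no Cre. QM differed from it in 11 genes (0.0721%), 5 higher (0.0328%) and 6 lower (0.0393%). The higher ones were Sulf2 at 1.36, Def6 at 1.34, Mt1 at 1.02, Zmat3 at 0.64 and Rnf169 at 0.50. The lower ones included Ei24 at -0.99 and the phosphatase gene Dusp12 at -0.76. QM differed from Null+Cre, its match in virus, in 71 genes (0.465%), 41 higher (0.269%) and 30 lower (0.197%). Sulf2 at 1.99, the membrane glycoprotein gene Prom1 at 1.58, Def6 at 1.44 and Zmat3 at 0.72 were among the higher ones. Ei24 at -0.58 and Cdkn1a at -0.56 were among the lower ones. The subgroups themselves differed in 75 genes (0.491%), 37 higher (0.242%) and 38 lower (0.249%) in LSL-WT+Emp. Leaving out 1 array moved these counts. The LSL-WT+Emp comparison had 4 genes without QM replicate 1, without QM replicate 3, without LSL-WT+Emp replicate 1 or without LSL-WT+Emp replicate 3, 6 without LSL-WT+Emp replicate 2, and 7 without QM replicate 2, Null+Cre replicate 3 or Null+Cre replicate 4. The Null+Cre comparison had 8 without QM replicate 2, QM replicate 3 or Null+Cre replicate 2, 13 without QM replicate 1, 37 without LSL-WT+Emp replicate 1 and 40 without LSL-WT+Emp replicate 3. The difference of the subgroups had 8 without LSL-WT+Emp replicate 2 or Null+Cre replicate 2, 12 without LSL-WT+Emp replicate 3, 14 without LSL-WT+Emp replicate 1 and 31 without QM replicate 2. The fits without the block gave 2, 31 and 33 genes. The count of QM against WT was 2611 without QM replicate 2.

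Saa3, an acute-phase serum amyloid gene, shows where the subgroups part. Its log2 levels were 7.27, 7.48 and 7.60 in QM, against 7.20, 7.26 and 7.65 in LSL-WT+Emp and 13.28, 9.75 and 11.87 in Null+Cre. QM matched the range of LSL-WT+Emp, and Null+Cre stood above both. QM minus LSL-WT+Emp was 0.08 and QM minus Null+Cre was -3.55 (adjusted p = 0.0312 in limma). Mt1, a metallothionein gene, parted them the other way, with 14.21, 14.16 and 14.38 in QM, 13.32, 13.47 and 12.90 in LSL-WT+Emp and 14.39, 14.41 and 14.24 in Null+Cre. Here QM met Null+Cre and stood above LSL-WT+Emp. Interferon-response genes, 24 tested, had a median of 0.19 in QM against LSL-WT+Emp and of -0.68 against Null+Cre, with 0 passing in either. Sulf2 and Def6 did not differ between the subgroups beyond the threshold, at 0.63 (adjusted p = 0.125 in limma) and 0.10 (adjusted p = 0.881 in limma) for LSL-WT+Emp minus Null+Cre. The part of virus, strain and sex in these differences was not tested beyond the fits with strain or Xist as a term, in which Sulf2 and Def6 still passed.

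To read genes of the wild-type response apart from the arrays named in their choice, the 100 highest-ranked and the 100 lowest-ranked genes by statistic in WT+Cre minus Null+Cre were measured in QM minus LSL-WT+Emp, which names no array of that choice. In the fit with the block, however, unequal title numbers bring other arrays into every difference that involves Null+Cre, so the choice and the measured values were not fully separate. The 100 higher genes had a median of 0.16 in QM, with 77 positive, beside a median of 0.00 and 51.6% positive over all genes. In LSL-WT+Cre minus LSL-WT+Emp the same 100 had a median of 1.54. The 100 lower genes had a median of -0.03 in QM, with 38 positive, and of -0.88 in LSL-WT+Cre. That median was 0.01 without LSL-WT+Emp replicate 2.

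With the roles of the subgroups exchanged, the 100 genes highest in LSL-WT+Cre minus LSL-WT+Emp had a median of 0.12 in QM minus Null+Cre, with 68 positive, beside 0.03 and 57.1% over all genes, against 1.72 in WT+Cre minus Null+Cre. The 100 lowest had a median of 0.12 in QM, with 90 positive, against -0.74 in WT+Cre. So the higher genes had small positive medians in both readings, while the lower genes had medians of opposite sign. Without the block, where each difference is one of plain subgroup means and only the spread is estimated in common, the medians were 0.16 for higher and -0.03 for lower genes against LSL-WT+Emp, and 0.15 and 0.11 against Null+Cre.

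**Figure D5:**
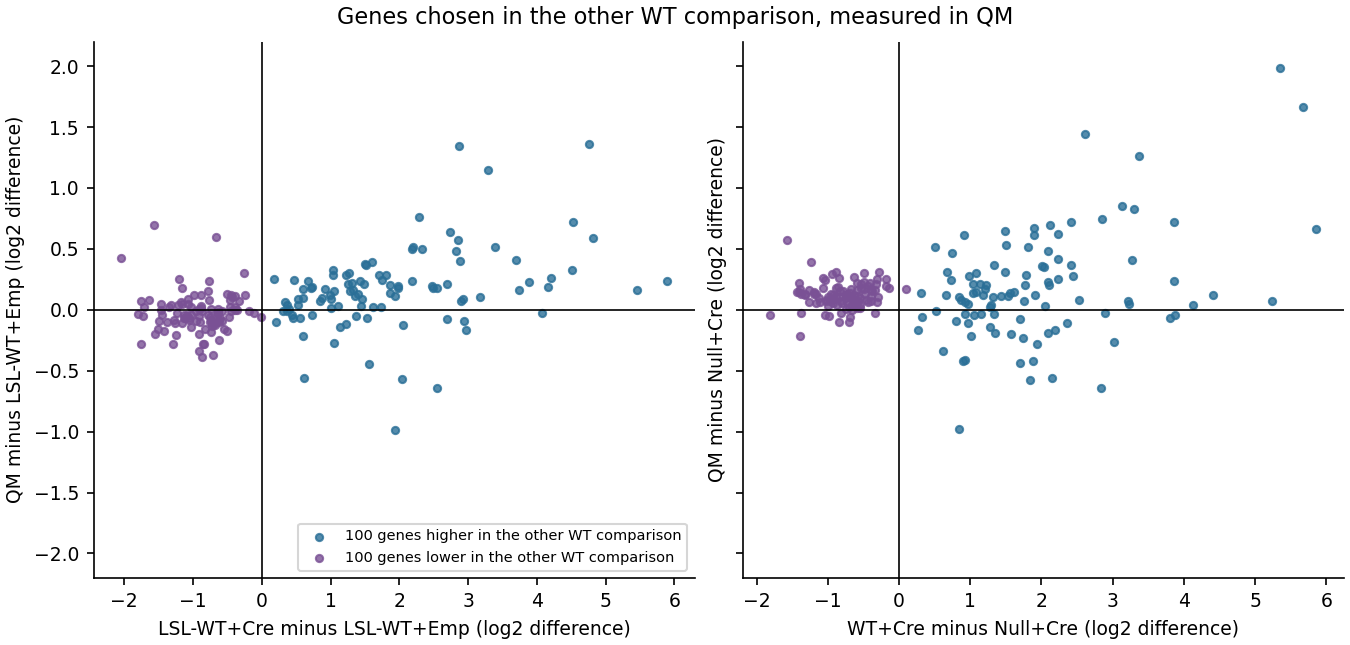
Genes of the wild-type response chosen in the other wild-type comparison: the x axis is the wild-type log2 difference and the y axis the QM log2 difference, each against the same Null subgroup (LSL-WT+Emp at the left, Null+Cre at the right), 100 genes per colour. The higher genes scatter around small positive QM values, with medians of 0.16 and 0.12, far below their wild-type medians of 1.54 and 1.72.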

How the data were processed

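RNA was hybridised to Affymetrix oligonucleotide arrays, 1 per sample, in 23 samples of mouse embryonic fibroblasts. The deposited file holds 1 RMA intensity for each probe set and array, on a linear scale as its values show, with RMA named by the submitters' processing notes and the options of RMA not given in the sources used here. From the deposited intensities, log2 values were computed here. Of 45101 probe sets, 64 controls were left out, 34945 carried 1 gene symbol, 932 several and 9160 were not listed, and those of several or no symbols were not used. Each of 18193 genes took its probe set with the highest mean, and 15266 were tested, with at least 3 arrays above the 30th percentile.

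limma 3.58.1 in R 4.3.3 was fitted to all 23 arrays with 5 p53 groups and the title number as a fixed block (7 title groups for the subgroups of Null), with a moderated two-sided test, 95% intervals and Benjamini-Hochberg adjustment at 0.05. Lists are described by counts and medians. Of 5 same-number pairs of QM and LSL-WT+Emp or Null+Cre arrays, 4 had residuals that correlated above 0.1 (median 0.52, lowest 0.09), against a median of -0.25 for 13 other pairs, whose highest was 0.51. The labels do not state what equal numbers share. Alternatives covered the block, filter, probe-set rule, scaling, strain, Xist, variance model, arrays used and each array left out. Named genes were those past the threshold, members of the p53 lists, and the largest statistic of other lists, and further genes named were chosen after their values were seen. Members and lists were chosen with earlier results of these data known. In simulated data the fit made 7 false calls among 166. Some list members are not analysed here. Promoters are from RefSeq on GRCm38.p6.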

Additional observations from a re-analysis of the deposited data

Results flagged for a closer look

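Among 113 genes examined, 8 had 1 Null array far from the other 5, and chance flags about 1 in 20 groups. Ccng1 was at 10.33 on LSL-WT+Emp replicate 1, against 10.73 to 10.95 on the others, and its QM minus Null difference was 0.39 without that array, against 0.47 with it. Plk2, a polo-like kinase gene, was at 9.235 on Null+Cre replicate 2 (others 10.04 to 10.47), and Trp53i11 at 8.165 there (others 7.686 to 7.856). Utp20, a ribosome-biogenesis gene, was at 9.708 on the same array (others 10.26 to 10.42). Fancc, a Fanconi anaemia gene, was at 8.002 on LSL-WT+Emp replicate 1 (others 7.48 to 7.591), and Rev3l, a translesion polymerase gene, at 9.226 (others 9.643 to 9.763). Nes, the nestin gene, was at 11.23 on LSL-WT+Emp replicate 2 (others 10.34 to 10.66), and the Y-linked Uty at 4.636 (others 6.551 to 6.937), the one Null array with a high Xist level.

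For 10 of the 113 genes the QM difference depended on the Null subgroup, as the difference LSL-WT+Emp minus Null+Cre itself passed an adjusted p of 0.05 in limma. Over all genes tested 75 did (0.491%). The 113 include genes picked because they passed against 1 of the subgroups, which favours such genes. It was -0.6453 for Cdkn1a, so that QM minus LSL-WT+Emp was 0.09 and QM minus Null+Cre was -0.56. It was -1.437 for Dram1, an autophagy gene and p53 target, -1.184 for Mt1 and 0.6271 for Dusp12. It was -3.626 for Saa3, -2.261 for the membrane protein gene Ms4a4d, -1.439 for Creb3l1, a transcription factor gene, and -1.709 for Cp, the ceruloplasmin gene. It was 1.195 for C1ql3 and 1.063 for Prom1. Virus, allele, strain and the mix of sexes differ between the subgroups together and cannot be told apart for these 10 genes.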

How the results depend on the processing

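Sulf2 and Def6 were higher in QM than in Null in all 27 alternatives, and passed in 25 of them, missing only with the compared arrays alone, where the count of genes higher was 0 with the replicate block and 0 with no replicate block (limma, 774 and 366 genes at an unadjusted p under 0.05). The other counts of QM against Null, higher and lower, were 7 and 2 with a random replicate block, 32 and 8 with array weights, 7 and 3 against the mean of the 2 Null subgroups, 8 and 7 against Null+Cre alone and 3 and 2 against LSL-WT+Emp alone. They were 3 and 1 with trended and robust variances and 2 and 1 without title number 2. The mean of the probe sets of a gene gave 3 and 0, with Ccng1 added, and median centring gave 3 and 0, with Zmat3 added. All probe sets gave 3 and 0, all of them of Sulf2 or Def6. Leaving out 1 array gave 2 to 3 higher and 0 to 1 lower. The causes were not tested.

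The comparisons beside it were tried under the same alternatives after the data were seen. With no replicate block QM against WT had 2125 genes, and QM against LSL-WT+Emp 2, QM against Null+Cre 31 and the Null subgroups 33. A random block gave 131 for Null+Cre and 144 for the Null subgroups, and array weights gave 35 for QM against LSL-WT+Emp, 199 for QM against Null+Cre and 165 for the Null subgroups. In that order the Xist level gave 7, 17 and 31, strain gave 45 for the Null subgroups, and the compared arrays alone gave 0, 1 and 0 with the block and 0, 0 and 0 without. All probe sets, which count more features, gave 8803 for WT against Null and 6574 for QM against WT. Without title number 2 the counts were 3340 for WT against Null, 2353 for QM against WT, 26 for QM against LSL-WT+Emp, 3 for QM against Null+Cre and 14 for the Null subgroups. In that order, leaving out 1 array gave 4631 to 5055, 2611 to 4213, 4 to 13, 8 to 81 and 8 to 69. For genes chosen in the other wild-type comparison, medians ranged as follows with the number of genes kept. Higher genes ranged from 0.13 to 0.18 against LSL-WT+Emp and from 0.10 to 0.17 against Null+Cre. Lower genes ranged from 0.07 to 0.16 against Null+Cre. Against LSL-WT+Emp they ranged from -0.069 to 0.005352, with the sign reversed without LSL-WT+Emp replicate 2. With 50 and 200 genes, medians of higher genes were 0.21 and 0.11 against LSL-WT+Emp and 0.14 and 0.09 against Null+Cre. Those of lower genes were -0.04 and -0.03 against LSL-WT+Emp and 0.12 and 0.12 against Null+Cre. With 3 QM arrays the power was limited. In simulated data with 166 calls 56.7% of log2 changes of 0.5 were recovered, a rate that overstates the power here.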
